A study of Mus musculus with 6 samples.

Results

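The creatine kinase and phosphocreatine genes measured here were 7 genes chosen by name and matched through their NCBI gene numbers, of 17441 genes with a value in any library: *Ckm* (gene number 12715), *Ckmt2* (76722), *Ckb* (12709), *Slc6a8* (102857), *Gatm* (67092), *Gamt* (14431) and *Ak1* (11636). All 7 had a value in every library, and all 7 passed the filter on low values. RNA was taken from mouse heart tissue below the ligature 3 days after surgery, in 3 groups of 2 libraries. WT sham were wild-type mice after the operation without ligation, WT MI were wild-type mice after ligation of the left coronary artery to induce myocardial infarction (MI), and Card9 KO MI were *Card9* knockout mice after the same ligation. All mice were male, 12 weeks old by the labels and on a C57BL/6 background. Knockout mice without infarction were not analysed here. Against WT sham, the effects of genotype and of infarction on Card9 KO MI therefore cannot be told apart. The samples were pieces of tissue with all their cell types. No source says whether a library came from 1 mouse or from a pool, so the p-values measure the spread between these libraries, which may be technical. Levels are FPKM (fragments per kilobase of gene, scaled to the fragments of the library), on which different genes can be compared.

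Creatine kinase moves a phosphate group between ATP and creatine, and phosphocreatine carries the high-energy phosphate from mitochondria to the places where ATP is used. In the heart, the mitochondrial form encoded by *Ckmt2* sits on the inner membrane beside the ATP/ADP carrier and charges creatine, while the muscle form encoded by *Ckm* lies in the cytosol and at the sarcomere and regenerates ATP beside myosin. The brain form encoded by *Ckb* is expressed in brain, smooth muscle and many non-muscle cells, and it pairs with the muscle subunit or with itself. *Gatm* and *Gamt* encode the enzymes that make creatine from arginine and glycine, mainly in kidney and liver, *Slc6a8* encodes the transporter through which heart muscle takes creatine up, and *Ak1* encodes cytosolic adenylate kinase, a parallel route of phosphate transfer that uses ATP, ADP and AMP.

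The promoters of the 3 creatine kinase genes are shown because the muscle and brain forms moved in opposite directions in the infarcted tissue. They are the RefSeq (GRCm38.p6) bases directly before the start site, each found once by exact match in mm9, the genome build to which the reads were mapped. The capitals mark every match to CANNTG (the E box letters), TATAAA, the MEF2 site or the CArG box within these bases. *Ckm* is read from the plus strand at chr7:19996193-19996442, *Ckmt2* from the minus strand at chr13:92016491-92016740, and *Ckb* from the minus strand at chr12:112910550-112910799.
Ckm: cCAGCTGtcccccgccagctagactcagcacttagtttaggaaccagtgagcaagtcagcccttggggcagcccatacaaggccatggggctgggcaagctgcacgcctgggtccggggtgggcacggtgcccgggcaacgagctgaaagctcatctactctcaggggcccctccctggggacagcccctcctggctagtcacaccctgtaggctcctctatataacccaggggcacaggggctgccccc
Ckmt2: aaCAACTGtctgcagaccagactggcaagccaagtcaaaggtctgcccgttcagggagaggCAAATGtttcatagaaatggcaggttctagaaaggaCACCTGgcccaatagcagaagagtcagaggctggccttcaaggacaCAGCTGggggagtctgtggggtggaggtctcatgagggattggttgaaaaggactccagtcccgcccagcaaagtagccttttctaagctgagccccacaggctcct
Ckb: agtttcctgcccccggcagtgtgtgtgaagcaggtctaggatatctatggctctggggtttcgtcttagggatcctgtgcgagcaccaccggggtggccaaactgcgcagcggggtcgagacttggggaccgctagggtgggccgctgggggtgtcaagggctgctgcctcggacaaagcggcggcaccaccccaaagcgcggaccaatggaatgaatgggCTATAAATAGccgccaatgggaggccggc
Of the searched window, which ran on for another 50 bases past the start site, *Ckmt2* held 4 matches to CANNTG, *Ckm* held 1 and *Ckb* held none, whereas 72.3% of 32851 promoters in the RefSeq table held at least 1 on either strand. *Ckb* held 1 TATAAA, 28 bases before the start site, which lies inside its 1 match to the MEF2 site. TATAAA was held by 13.6% of all promoters, the MEF2 site by 3.19% and the CArG box by 1.63%, and no member promoter matched the CArG box. The *Ckmt2* window also held 1 match to GGGCGG on the opposite strand, letters held by 35.7% of all promoters. Of the other members, 1 of the 4 *Ak1* windows held the same pair of matches, TATAAA and the MEF2 site, past its start site. The RefSeq table matched 6 of the 7 members, without *Slc6a8*. A match is a description of the letters and says nothing about binding.

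*Card9* itself was read first, as the check of the labels. Its FPKM was 0.99 and 1.03 (WT sham), 3.39 and 5.08 (WT MI) and 9.85 and 6.94 (Card9 KO MI-labelled libraries). *Card9* was thus not lower in the Card9 KO MI-labelled libraries than in WT MI, and every direction given for that group rests on its label. Depth was estimated from the spacing of the low values at 3010000 to 4270000 fragments per library, so that 3 fragments on a gene of 2 kb correspond to 0.351 to 0.498 FPKM (counting error only). The 10 most abundant genes took 16.1% to 16.4% of all FPKM in WT sham and 8.99% to 10.6% in the 4 libraries after infarction. The median log2 fold change of all genes tested was 0.185 in WT MI against WT sham. Upper-quartile scaling moved this median to −0.027 and the genes called from 3637 higher and 1232 lower to 2452 and 2353. For the Card9 KO MI-labelled libraries against WT sham the median went from 0.238 to −0.02, and the calls from 4569 higher and 1875 lower to 3031 and 3149.

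In WT MI against WT sham, which addresses what infarction changed in the wild type, the muscle forms *Ckm* and *Ckmt2* and the adenylate kinase gene *Ak1* fell, while *Ckb* and *Gatm* rose. So 3 of 7 members (42.9%) were called lower and 2 of 7 (28.6%) higher, beside 9.39% and 27.7% of all 13120 genes tested. *Slc6a8* and *Gamt* were not called. Calls are an adjusted p below 0.05 from limma with Benjamini-Hochberg adjustment over all genes tested, and fold changes are on the log2(FPKM + 1) scale, which understates the change of low genes. In the Card9 KO MI-labelled libraries against WT MI, 1 member, *Ckb*, was called higher (0.816% of all genes were) and 0 of 7 were called lower (0.587% of all genes were). These comparisons share the WT MI libraries, and the comparison with WT sham given further on shares the others, so the values are given side by side for each gene.

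**Figure D1:**
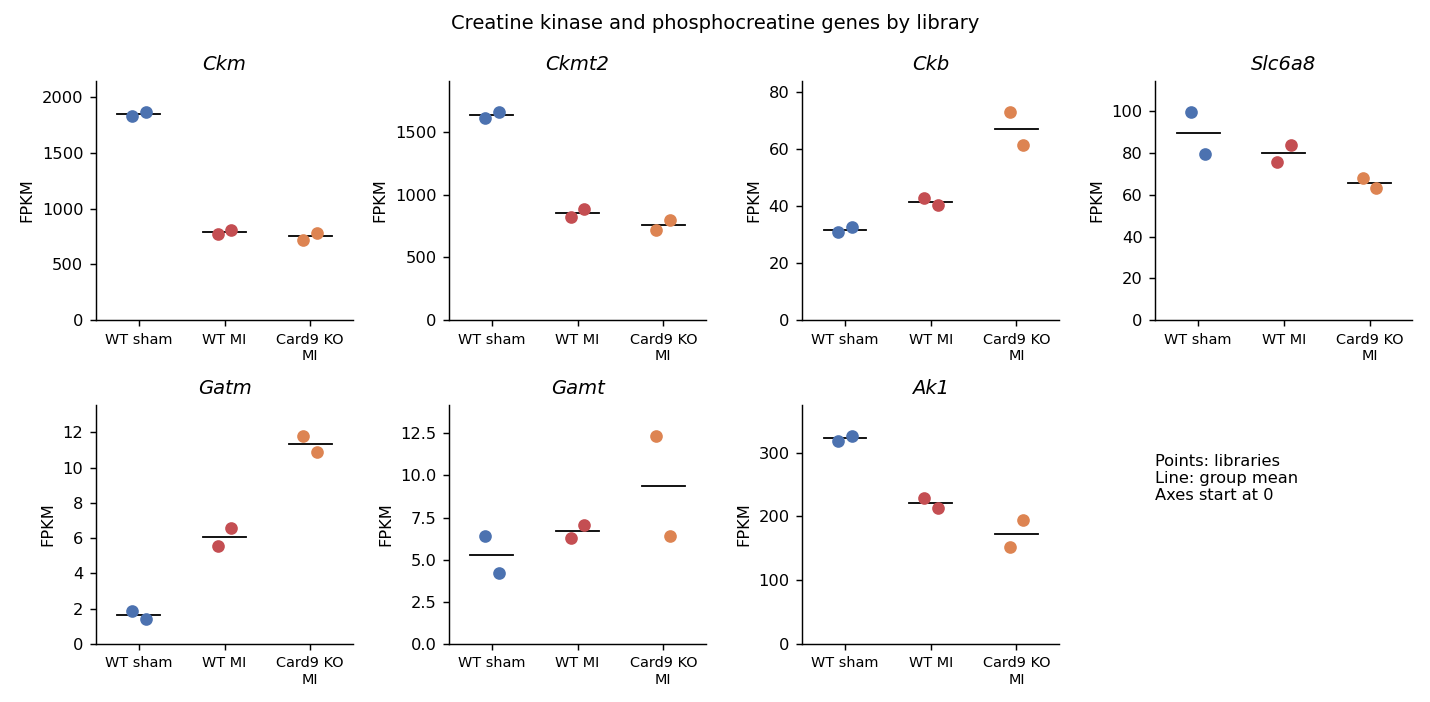
FPKM of the 7 members, with 1 panel per gene on its own linear axis from 0, points for the 2 libraries of each group and a line at the group mean. *Ckm* sits at 1834 and 1865 in WT sham and at or below 808 in the other 4 libraries, while *Ckb* is lowest in WT sham and highest in the Card9 KO MI-labelled libraries.

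*Ckm* (mm9 chr7:19996443-20006932, plus strand), the muscle form in the cytosol, was read at 1834 and 1865 FPKM (WT sham), 776.1 and 808.1 (WT MI) and 721.7 and 782.0 (Card9 KO MI-labelled libraries). Both WT sham libraries lay far above the other 4, and the libraries of the 2 infarct groups overlapped. The gene was the 24th and 25th most abundant in WT sham and between 57th and 76th after infarction. In WT MI against WT sham the mean ratio was 0.428, a log2 fold change of −1.22 (SE 0.09, adjusted p = 8.31e-05 by limma). The Card9 KO MI-labelled libraries differed from WT MI by −0.08 (95% interval −0.28 to 0.13, adjusted p = 0.686 by limma), a difference not called. The gene overlaps *A930016O22Rik* on the opposite strand, and since the counting is not stated to use strand, reads of the pair cannot be told apart. *A930016O22Rik* was read at 175.7 and 174.6 FPKM (WT sham), 70.3 and 76.9 (WT MI) and 73.9 and 77.3 (Card9 KO MI-labelled libraries).

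*Ckmt2* (mm9 chr13:91992992-92016490, minus strand), the mitochondrial muscle form, was read at 1610 and 1660 FPKM (WT sham), 824.4 and 886.3 (WT MI) and 718.1 and 800.8 (Card9 KO MI-labelled libraries). The 3 groups did not overlap and fell in this order, though the gap between the infarct groups was smaller than the distance between the replicates of either. WT MI was at 0.523 times WT sham, a log2 fold change of −0.93 (SE 0.10, adjusted p = 0.000336 by limma). Between the Card9 KO MI-labelled libraries and WT MI the log2 difference was −0.17 (95% interval −0.40 to 0.05, adjusted p = 0.365 by limma). The calls of *Ckm* and *Ckmt2* against WT sham held under all 17 alternative fits, and those genes were called in none of them between the infarct groups. A further requirement of a 2-fold difference in the group means kept the call of *Ckm* and ended that of *Ckmt2* in WT MI.

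The fall of the muscle forms went with a fall of cardiomyocyte genes. All 13 cardiomyocyte markers, among them *Myh6*, *Tnnt2*, *Mb* and *Ryr2*, had lower fitted levels in WT MI than after sham surgery, and 9 of 13 were called lower. Their summed FPKM was 67747 and 68215 (WT sham), 40104 and 41369 (WT MI) and 33400 and 38462 (Card9 KO MI-labelled libraries). In bulk tissue, fewer cardiomyocytes and less RNA per cardiomyocyte cannot be told apart. Skeletal muscle, the other tissue rich in *Ckm*, was checked with its own markers: the skeletal myosin genes *Myh2* and *Myh4* were at or near 0 in every library (highest value 0.05), and the 8 skeletal markers summed to 1.48 and 1.48 FPKM in WT sham and to 7.13 to 15.3 after infarction, mostly *Tnnt3* and *Tnni2*, the 2 tested and both called higher. In WT sham *Tnnt3* was at 0.94 and 0 and *Tnni2* at 0.49 and 1.03. Both passed the filter on low values only with the libraries after infarction, so these calls depend on that selection.

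Set against the summed cardiomyocyte markers of the same library, *Ckm* plus *Ckmt2* made up 5.08% and 5.17% (WT sham), 3.99% and 4.10% (WT MI) and 4.31% and 4.12% (Card9 KO MI-labelled libraries). The means were 5.13% ± 0.06, 4.04% ± 0.07 and 4.21% ± 0.14 (SD, n = 2). Each of the 4 libraries after infarction lay below both WT sham libraries, and the infarct groups did not overlap either. With 2 libraries against 2, the exact permutation test (two-sided) cannot give a p below 0.333, and 0.333 was the value for every pair of groups and each of the 3 ratios given here. The difference between the infarct groups, 0.17 percentage points, turned to −0.53 under quantile normalization, while the difference from WT sham kept its direction. Relative to the marker sum and to the WT sham mean, *Ckm* stood at 0.711 and 0.718 in WT MI and *Ckmt2* at 0.855 and 0.891. Mean ratios of WT MI to WT sham ran from 0.422 (*Myl2*) and 0.443 (*Mb*) to 0.869 (*Tnnt2*) and 0.90 (*Actn2*) among the markers. The ratio of *Ckm*, 0.428, lay within that range. Values relative to the marker sum, here and for *Slc6a8* and *Ak1*, therefore depend on which markers weigh most in it.

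The balance of the 2 muscle forms differed between the groups as well. The ratio of *Ckm* to *Ckmt2* was 1.14 and 1.12 (WT sham), 0.941 and 0.912 (WT MI) and 1.00 and 0.977 (Card9 KO MI-labelled libraries). *Ckm* was thus the more abundant form in both WT sham libraries and *Ckmt2* in both WT MI libraries. In the Card9 KO MI-labelled group the order of the forms differed between the libraries. The means were 1.13 ± 0.01, 0.927 ± 0.021 and 0.991 ± 0.020 (SD, n = 2), and no pair of groups overlapped.

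**Figure D2:**
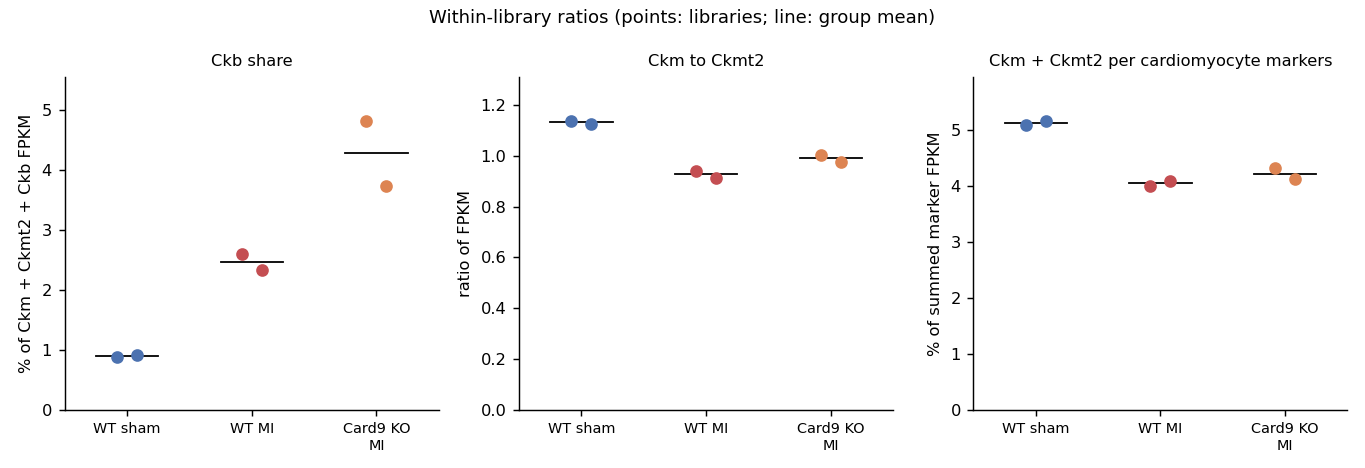
Ratios computed within each library, with points for libraries and a line at the group mean on linear axes from 0: *Ckb* as a percent of the FPKM of *Ckm*, *Ckmt2* and *Ckb* (left), the ratio of *Ckm* to *Ckmt2* (middle), and *Ckm* plus *Ckmt2* as a percent of the summed cardiomyocyte markers (right). The *Ckb* share stands at 0.887% and 0.916% (WT sham), 2.60% and 2.33% (WT MI) and 4.82% and 3.73% (Card9 KO MI-labelled libraries).

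*Ckb* (mm9 chr12:112907566-112910549, minus strand), the brain form, moved the other way. Its level was 30.8 and 32.6 FPKM (WT sham), 42.8 and 40.4 (WT MI) and 73.0 and 61.3 (Card9 KO MI-labelled libraries). The 3 groups did not overlap and stood in this order. Between WT MI and WT sham 5 of 7 members did not overlap, and between the infarct groups also 5 of 7, where 70.4% and 52.7% of all genes tested did not. *Ckb* was 1.31 times as high in WT MI as in WT sham, a log2 fold change of 0.38 (SE 0.11, adjusted p = 0.0327 by limma). This call ended under all 3 other scalings (log2 fold change 0.14 to 0.23), without the trend term, and when any 1 of the 4 libraries compared was left out (adjusted p 0.0761 to 0.153 by limma).

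In the Card9 KO MI-labelled libraries *Ckb* was 1.62 times as high as in WT MI, a log2 fold change of 0.67 (SE 0.11, adjusted p = 0.0432 by limma). The direction held in all 17 alternatives, but the call held in 7 of them. It ended when any 1 library other than Card9 KO MI replicate 2 was left out (adjusted p 0.0582 to 0.226 by limma), and it ended with the replicate number as a block (adjusted p = 0.0721 by limma). Against WT sham the same libraries were 2.12 times as high, a log2 fold change of 1.06 (SE 0.11, adjusted p = 0.000245 by limma), called under all 17 alternatives.

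The summed FPKM of the 3 creatine kinase genes was 3474 and 3558 (WT sham), 1643 and 1735 (WT MI) and 1513 and 1644 (Card9 KO MI-labelled libraries). The rise of *Ckb* was thus small on the scale of the whole sum, of which it made up 0.901% ± 0.021 after sham surgery, 2.46% ± 0.20 in WT MI and 4.28% ± 0.77 for the Card9 KO MI label (SD, n = 2). The share did not overlap between any pair of groups, with the same smallest p of 0.333. *Ckm* and *Ckmt2* made up the rest. *Ckmt1*, the ubiquitous mitochondrial form, was not analysed here and is not in the sum.

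Markers of other cells in which *Ckb* can be expressed had higher summed levels after infarction as well. The 7 smooth muscle markers summed to 132.1 and 159.3 FPKM (WT sham), 233.0 and 223.0 (WT MI) and 477.0 and 450.3 (Card9 KO MI-labelled libraries), mostly from *Acta2*, *Tagln* and *Smtn*, while *Myh11*, the defining myosin of smooth muscle, was at 5.11 to 5.31 in the first 2 groups and at 7.44 and 10.8 in the Card9 KO MI-labelled group. *Smtn* was lower in WT MI, at 61.9 and 62.8 FPKM against 69.7 and 77.1 in WT sham, a difference not called. In that comparison the fitted levels of 5 of the 7 markers were higher and those of 2 lower. Against WT sham, 3 of these 7 in WT MI were called higher, and between the infarct groups 2 of 7. The 10 macrophage markers summed to 268.2 and 237.0 (WT sham), 894.2 and 1117 (WT MI) and 1955 and 1454 (Card9 KO MI-labelled libraries), and the 8 fibroblast markers to 511.7 and 489.1, 1479 and 2003, and 3188 and 3059. Called higher in WT MI against WT sham were 9 of 10 macrophage and 6 of 8 fibroblast markers, and between the infarct groups 0 of 10 and 3 of 8. Fitted levels of 9 of 10 and 6 of 8 were higher in the Card9 KO MI-labelled libraries than in WT MI. *Cd163*, *Pdgfra* and *Dcn* were lower there. *Cd163* went from 10.3 and 5.59 to 3.37 and 3.10 FPKM, and *Pdgfra* from 15.2 and 15.9 to 10.6 and 10.4. Neural and glial markers summed to 6.70 and 7.88 in WT sham and 27.3 to 30.8 after infarction, where *Tubb3* alone was at 19.2 to 25.2, with *Gfap* at 0 in the 4 wild-type libraries. The part of these cells in the level of *Ckb* was not tested.

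**Figure D3:**
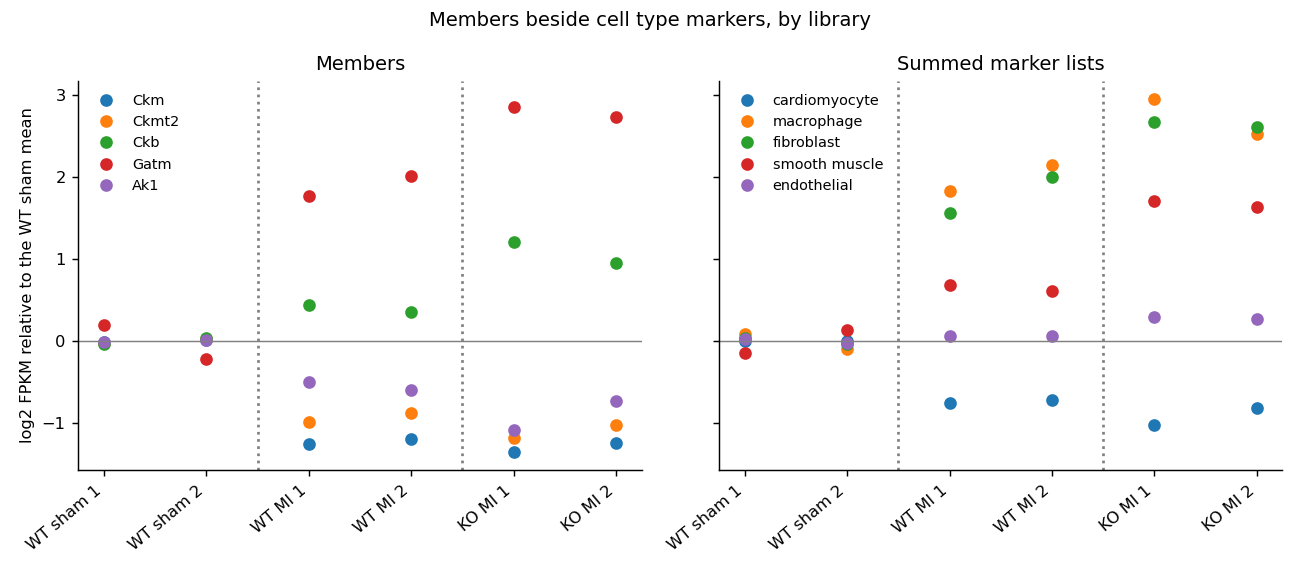
Levels of 5 members (left) and summed FPKM of 5 marker lists (right) in each library, as log2 of the ratio to the WT sham mean, with dotted lines between the groups. *Ckm*, *Ckmt2* and *Ak1* lie below 0 after infarction with the cardiomyocyte sum, and *Gatm* and *Ckb* lie above 0 with the macrophage, fibroblast and smooth muscle sums.

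*Gatm* (mm9 chr2:122420203-122437039, minus strand), which encodes the enzyme of the committed step of creatine synthesis, had the largest fold change among the members. It was read at 1.87 and 1.40 FPKM (WT sham), 5.55 and 6.57 (WT MI) and 11.8 and 10.9 (Card9 KO MI-labelled libraries). All 3 groups stood apart. These levels correspond to an estimated 14.1 and 10.1 fragments in WT sham, the fewest of any member in those libraries, and to 53.4 to 120 after infarction. The mean ratio of WT MI to WT sham was 3.71, and the log2 fold change of FPKM + 1 was 1.42 (SE 0.17, adjusted p = 0.00066 by limma), called under all 17 alternatives.

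Between the infarct groups the mean of *Gatm* in the Card9 KO MI-labelled libraries was 1.87 times that of WT MI. The log2 difference was 0.81 (95% interval 0.41 to 1.20) and was not called (adjusted p = 0.0679 by limma). It was called with an added FPKM of 5 (adjusted p = 0.042 by limma) and in no other of the 17 alternatives. Even at its highest, *Gatm* stood far below *Ckm*. The macrophage, fibroblast and smooth muscle sums given for *Ckb*, though not every marker in them, moved in the same order across the 3 groups as *Gatm*. The part of these cells in the level of *Gatm* was not tested.

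*Gamt* (mm9 chr10:79720896-79723757, minus strand), which encodes the enzyme that completes creatine synthesis, was read at 6.39 and 4.21 FPKM (WT sham), 6.31 and 7.03 (WT MI) and 12.4 and 6.43 (Card9 KO MI-labelled libraries). WT MI overlapped both other groups. The Card9 KO MI-labelled libraries lay above WT sham, though only by 6.43 against 6.39 at the nearest, and their high mean came from replicate 1. No comparison was called: the log2 difference was 0.30 (95% interval −0.36 to 0.97) in WT MI against WT sham and 0.38 (−0.29 to 1.05) between the infarct groups. Without Card9 KO MI replicate 1 the latter became −0.04.

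*Slc6a8* (mm9 chrX:70918489-70927841, plus strand), the creatine transporter gene, was read at 99.6 and 79.8 FPKM (WT sham), 75.9 and 84.0 (WT MI) and 67.9 and 63.4 (Card9 KO MI-labelled libraries). WT sham and WT MI overlapped, whereas the Card9 KO MI-labelled group lay below the other 4 libraries. The log2 difference of WT MI from WT sham was −0.16 (95% interval −0.45 to 0.13, adjusted p = 0.361 by limma). It was 0.00 without WT sham replicate 1, and it was called lower under upper-quartile scaling, at −0.40 (adjusted p = 0.0345 by limma). Against the summed cardiomyocyte markers and relative to WT sham, *Slc6a8* stood at 1.43 and 1.54 in WT MI, where *Ckm* was at 0.711 and 0.718.

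*Ak1* (mm9 chr2:32477278-32502325, plus strand), the cytosolic adenylate kinase gene, was read at 319.3 and 326.6 FPKM (WT sham), 229.2 and 212.6 (WT MI) and 151.6 and 193.9 (Card9 KO MI-labelled libraries). The groups did not overlap. WT MI was at 0.684 times WT sham, a log2 fold change of −0.55 (SE 0.12, adjusted p = 0.0111 by limma), and this call ended without WT sham replicate 2 (adjusted p = 0.0556 by limma) or without WT MI replicate 2 (adjusted p = 0.0732 by limma). The libraries labelled Card9 KO MI were at 0.782 times WT MI, with a log2 difference of −0.36 (95% interval −0.65 to −0.08, adjusted p = 0.162 by limma) that was not called and that ran from −0.54 to −0.19 when a library was left out. Per summed cardiomyocyte marker, *Ak1* stayed between 0.956 and 1.20 times the WT sham mean in the 4 libraries after infarction, where *Ckm* was at 0.711 to 0.794. *Ak1* overlaps *Eng* on the same strand. *Eng*, an endothelial gene, was at 89.4 and 84.3 FPKM in WT sham and at 109.6 to 117.5 after infarction, and how reads of the shared stretch were assigned is not given in the sources used here.

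Against WT sham, the Card9 KO MI-labelled libraries had 4 of 7 members (57.1%) called lower and 2 of 7 (28.6%) higher, beside 14.3% and 34.8% of all genes tested. None of the 7 members overlapped in this comparison, where 76.1% of all genes did not. *Ckm* was at 0.406 times WT sham, with a log2 fold change of −1.30 (SE 0.09, adjusted p = 3.49e-05 by limma), and *Ckmt2* at 0.465 times, with −1.11 (SE 0.10, adjusted p = 9.39e-05 by limma). *Ak1* was at 0.535 times WT sham (log2 fold change −0.91, adjusted p = 0.000739 by limma), and *Gatm* at 6.93 times (log2 fold change 2.23, adjusted p = 5.62e-05 by limma). *Slc6a8* was called lower at 0.733 times (log2 fold change −0.44, adjusted p = 0.022 by limma), a call that ended without WT sham replicate 1 (adjusted p = 0.123 by limma), without Card9 KO MI replicate 2 (adjusted p = 0.0847 by limma) and without the trend term (adjusted p = 0.0566 by limma). *Gamt* was not called, at 0.68 (95% interval 0.01 to 1.35, adjusted p = 0.0836 by limma), and without Card9 KO MI replicate 2 it was (adjusted p = 0.012 by limma).

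**Figure D4:**
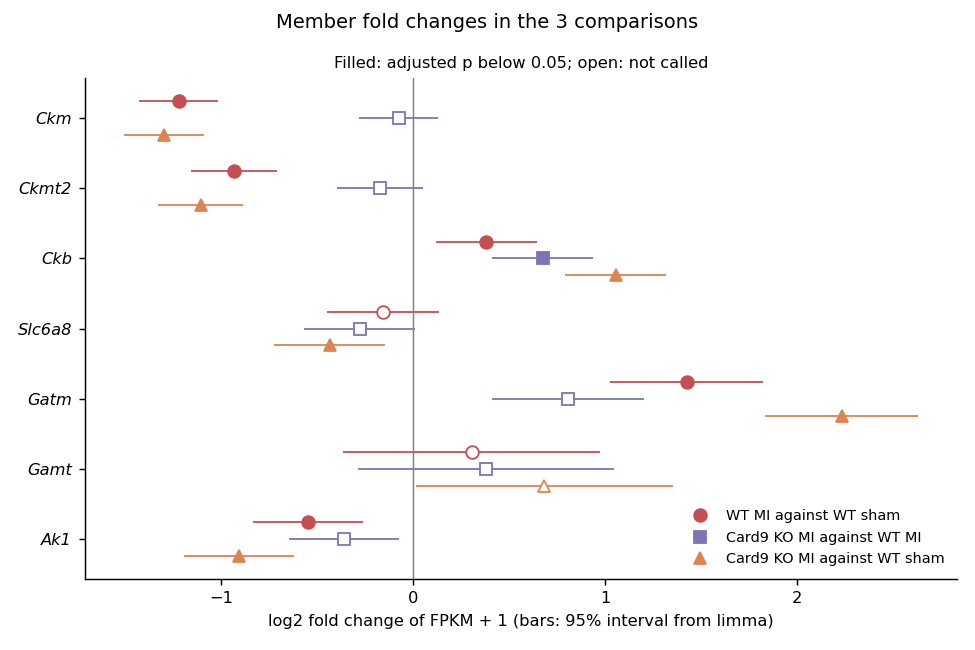
Log2 fold change of FPKM + 1 for the 7 members (rows) in the 3 comparisons (colours and shapes), with bars for the 95% interval from limma and filled symbols for an adjusted p below 0.05. *Ckm*, *Ckmt2* and *Ak1* lie left of 0 and *Ckb* and *Gatm* right of it in all 3 comparisons, and *Ckb* alone is filled between the infarct groups.

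In the order of the levels, *Ckm* and *Ckmt2* stood highest in all 6 libraries and *Ak1* followed. *Slc6a8* exceeded *Ckb* in the 4 wild-type libraries, whereas in the Card9 KO MI-labelled group these genes overlapped (67.9 and 63.4 against 73.0 and 61.3 FPKM). Within each wild-type library *Gamt* exceeded *Gatm*, though across the WT MI libraries the values of the pair overlapped. In the Card9 KO MI-labelled group *Gamt* was the higher in replicate 1 (12.4 against 11.8 FPKM) and the lower in replicate 2 (6.43 against 10.9).

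The partners of the shuttle were taken from a list of 29 phosphotransfer genes: the mitochondrial ATP/ADP and phosphate carriers, the voltage-dependent channels of the outer membrane, other adenylate kinases, nucleoside diphosphate kinases, AMP deaminases and subunits of AMP-activated protein kinase. Of these, 24 had a value and 22 were tested. In WT MI against WT sham 6 of 22 were called higher and 3 of 22 lower, beside 27.7% and 9.39% of all genes tested, so the count of higher partners was near the share of all genes. The median log2 fold change was −0.01 beside 0.185 for all genes. Under the 3 other scalings 2 or 3 were higher and 6 or 7 lower, and without the trend term 3 and 1. The 6 became 3 without WT MI replicate 1, and the 3 became 1 without either WT sham library or without WT MI replicate 2, and 5 without either Card9 KO MI-labelled library or with the 2 groups fitted alone. With the 2-fold requirement 2 were called higher and 0 lower. Between the infarct groups 0 of 22 were called in either direction, with a median of −0.16 beside 0.045 for all genes tested.

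*Slc25a4*, the ATP/ADP carrier of heart muscle mitochondria, fell with *Ckmt2*. It was read at 3670 and 3595 FPKM (WT sham), 2331 and 2276 (WT MI) and 1749 and 2016 (Card9 KO MI-labelled libraries). The groups did not overlap, and the log2 fold change in WT MI against WT sham was −0.66 (SE 0.10, adjusted p = 0.00225 by limma), which became 0.00 under quantile normalization, where the call against WT sham of the Card9 KO MI-labelled libraries ended too (adjusted p = 0.189 by limma). The isoform *Slc25a5*, which is common in other cells, was at 199.3 and 167.1 (WT sham), 269.0 and 227.8 (WT MI) and 204.1 and 206.1 (Card9 KO MI-labelled libraries). It rose in WT MI (log2 fold change 0.44, adjusted p = 0.0234 by limma), and in the Card9 KO MI-labelled group it was not called against WT sham (0.17, adjusted p = 0.278 by limma). The channels split in WT MI against WT sham, with *Vdac1* lower (log2 fold change −0.40, adjusted p = 0.0189 by limma) and *Vdac2* higher (0.58, adjusted p = 0.00602 by limma). *Vdac2* was at 198.1 and 193.5 FPKM (WT sham), 265.9 and 323.7 (WT MI) and 193.7 and 213.8 (Card9 KO MI-labelled libraries), where it was not called against WT sham (0.06, adjusted p = 0.714 by limma). The catalytic subunits of AMP-activated protein kinase split as well: *Prkaa2*, the form of heart and skeletal muscle, was lower (−0.46, adjusted p = 0.0268 by limma) and *Prkaa1* higher (0.42, adjusted p = 0.0477 by limma) in WT MI. The directions of these 6 calls held under every other scaling except for *Slc25a4*, but the calls of *Slc25a5* and *Prkaa1* ended under all 3 other scalings and that of *Vdac2* under upper-quartile scaling (adjusted p = 0.0614 by limma). When a library was left out, *Vdac1* (adjusted p up to 0.115), *Prkaa2* (up to 0.153), *Prkaa1* (up to 0.204) and *Slc25a5* (up to 0.155 by limma) each lost their call in at least 1 case, and *Prkaa1*, named after its value was seen, kept it in 3 of 17 alternatives.

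The largest rises among the partners were *Nme1*, a nucleoside diphosphate kinase gene, and *Ampd2*, an AMP deaminase gene. *Nme1* was read at 13.2 and 9.19 FPKM (WT sham), 39.3 and 33.5 (WT MI) and 46.3 and 43.0 (Card9 KO MI-labelled libraries), with a log2 fold change of 1.63 (SE 0.17, adjusted p = 0.000346 by limma) in WT MI against WT sham. *Ampd2* was at 3.27 and 1.79, 7.93 and 6.98, and 9.47 and 7.83, with a log2 fold change of 1.29 (SE 0.22, adjusted p = 0.00365 by limma). Neither gene overlapped between WT sham and the other groups. *Ampd3*, the AMP deaminase gene of erythrocytes and heart, was at 22.1 and 28.9, 37.5 and 35.0, and 24.5 and 24.0, and its rise in WT MI (log2 fold change 0.50, adjusted p = 0.0244 by limma) was not called under the 3 other scalings. The call of *Ampd3* also ended without the trend term (adjusted p = 0.0517 by limma), without WT sham replicate 1 and without either WT MI library. It held in 10 of 17 alternatives, and the log2 fold change ran from 0.32 to 0.69 when a library was left out.

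The adenylate kinase genes *Ak3* and *Ak4*, whose products lie in the mitochondrial matrix, were not called in WT MI against WT sham. *Ak3* stood at −0.24 on the log2 scale (adjusted p = 0.0716 by limma), but it was called lower under all 3 other scalings (−0.49 to −0.39, adjusted p 0.00574 to 0.0146 by limma). *Ak4* stood at −0.10 (adjusted p = 0.729 by limma), which turned to 0.07 without WT sham replicate 2. In the Card9 KO MI-labelled libraries against WT sham, *Ak4* was called lower (−0.65, adjusted p = 0.0324 by limma). That call held in 11 of 17 alternatives, and among others it ended without WT sham replicate 2 (adjusted p = 0.16 by limma) or without Card9 KO MI replicate 1 (adjusted p = 0.182 by limma). In that comparison 4 of 22 partners were called higher and 8 of 22 lower, beside 34.8% and 14.3% of all genes tested, with a median of −0.02 beside 0.238 for all genes. The log2 fold changes were 1.92 for *Nme1*, 1.48 for *Ampd2* and 0.43 for *Prkaa1* among the higher ones. The call of *Prkaa1* held in 6 of 17 alternatives and ended under all 3 other scalings (adjusted p 0.134 to 0.64 by limma). Among the lower ones they were −0.95 for *Slc25a4*, −0.88 for *Prkaa2*, −0.71 for *Vdac1* and −0.64 for *Slc25a3*, the phosphate carrier. The 4 called higher became 2 under each of the 3 other scalings and without either WT sham library or Card9 KO MI replicate 1. With the 2-fold requirement 2 were called higher and 0 lower.

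**Figure D5:**
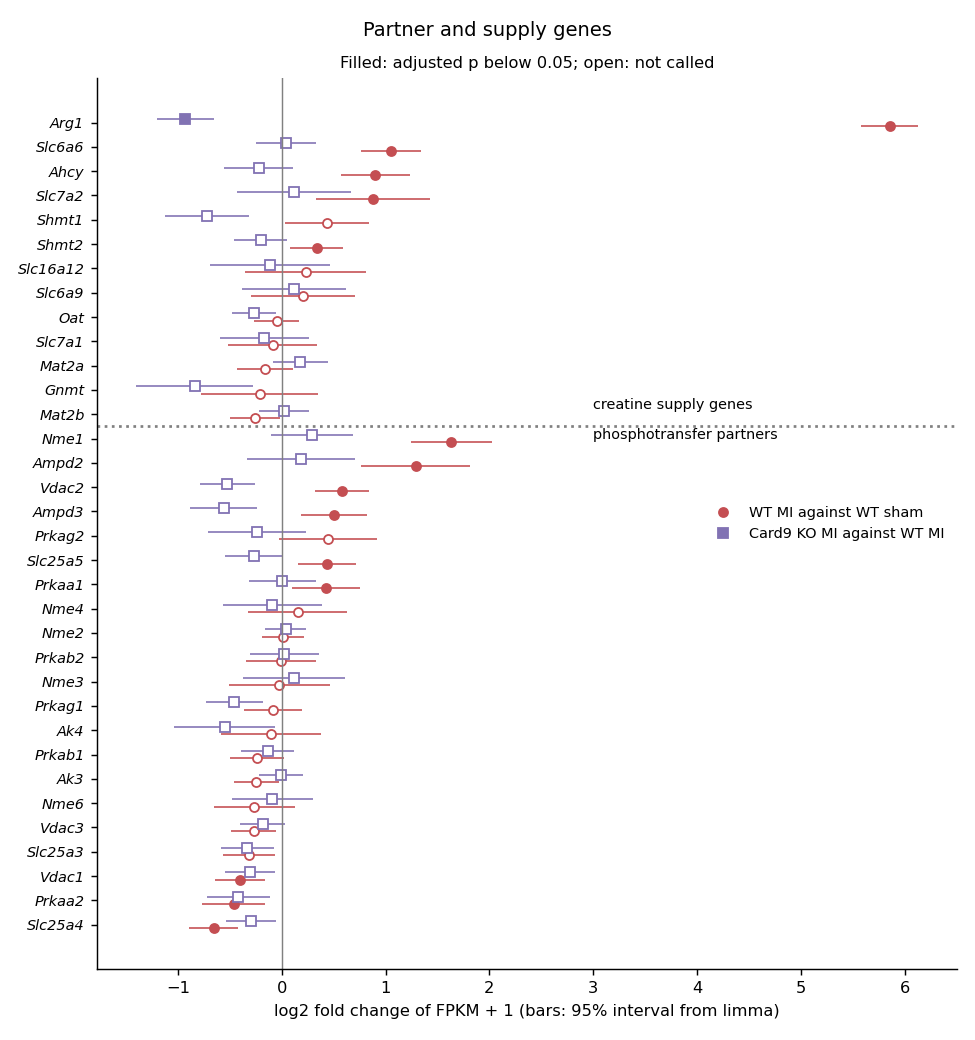
Log2 fold change of FPKM + 1 for 21 of the 22 phosphotransfer partners (below the dotted line) and the 13 creatine supply genes (above it) in WT MI against WT sham (circles) and in the Card9 KO MI-labelled libraries against WT MI (squares), with bars for the 95% interval from limma and filled symbols for an adjusted p below 0.05. *Slc25a4* has the lowest value among the partners in the wild-type comparison at −0.66, and *Arg1* is far to the right at 5.86.

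A list of 15 creatine supply genes, covering arginine and glycine metabolism, methyl donors and further transporters, had 13 members tested. In WT MI against WT sham 5 of 13 were called higher and 0 of 13 lower, beside 27.7% and 9.39% of all genes tested, with a median log2 fold change of 0.23 beside 0.185 for all genes. Under the other scalings 1 to 3 were called lower. The 5 became 3 under quantile normalization, with the 2-fold requirement and without WT sham replicate 1 or without either WT MI library. *Arg1*, arginase, which removes the arginine that *Gatm* uses, was read at 0.64 and 0.45 FPKM (WT sham), 90.3 and 86.3 (WT MI) and 47.4 and 44.3 (Card9 KO MI-labelled libraries). The WT sham values are near the level of 3 fragments. *Arg1* passed the filter on low values only with the libraries after infarction, so its calls against WT sham depend on that selection. Its log2 fold change was 5.86 (SE 0.12, adjusted p = 9.72e-07 by limma) in WT MI against WT sham. It was the 1 supply gene called between the infarct groups, at −0.93 (SE 0.12, adjusted p = 0.0213 by limma), and this call ended in 7 of 17 alternatives, among them the omission of any 1 of the 4 libraries of the infarct groups.

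*Slc6a6*, the taurine transporter gene of the same transporter family as *Slc6a8*, was read at 28.2 and 28.6 FPKM (WT sham), 67.5 and 53.2 (WT MI) and 63.1 and 60.4 (Card9 KO MI-labelled libraries). It rose in WT MI (log2 fold change 1.05, adjusted p = 0.000646 by limma), and the infarct groups overlapped. *Ahcy*, which clears the S-adenosylhomocysteine that *Gamt* produces, rose by 0.90 (adjusted p = 0.00242 by limma) and the arginine transporter gene *Slc7a2* by 0.88 (adjusted p = 0.0222 by limma) in the same comparison. *Slc7a2* passed the filter on low values only with the libraries after infarction, so its calls against WT sham depend on that selection. The call of *Slc7a2*, at 0.37 to 2.34 FPKM, ended without WT sham replicate 1 or either WT MI library (adjusted p 0.0559 to 0.113 by limma) and under quantile normalization (adjusted p = 0.0938 by limma). That of *Shmt2*, a serine hydroxymethyltransferase gene (0.34, adjusted p = 0.0467 by limma), held in 7 of 17 alternatives. In the Card9 KO MI-labelled libraries against WT sham 4 of 13 were called higher and 2 of 13 lower, beside 34.8% and 14.3% of all genes tested. The 2 called lower became 5 under upper-quartile scaling and under quantile normalization. They became 1 with the mean filter of 5 FPKM, without the trend term, with the 2-fold requirement, and without either WT sham library or Card9 KO MI replicate 1. The higher ones were *Arg1* (log2 fold change 4.93), *Slc6a6* (1.09), *Slc7a2* (1.00) and *Ahcy* (0.68). The call of *Slc7a2* ended under quantile normalization (adjusted p = 0.0731 by limma), without WT sham replicate 1 (adjusted p = 0.0511 by limma) and without Card9 KO MI replicate 2 (adjusted p = 0.0528 by limma), and that of *Ahcy* ended under upper-quartile scaling (adjusted p = 0.0554 by limma). The lower ones were *Gnmt*, another methyltransferase that uses S-adenosylmethionine (−1.05, adjusted p = 0.00883 by limma), and *Oat*, ornithine aminotransferase (−0.32, adjusted p = 0.0238 by limma). *Gnmt* was at 1.85 and 1.29 FPKM (WT sham), 1.45 and 0.99 (WT MI) and 0.23 and 0.24 (Card9 KO MI-labelled libraries). The last values lie below the level of 3 fragments on a gene of 2 kb. *Gnmt* passed the filter on low values only through wild-type libraries. The call of *Gnmt* ended without WT sham replicate 1 (adjusted p = 0.0584 by limma), and that of *Oat* without either WT sham library or Card9 KO MI replicate 1 (0.065 to 0.111).

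Genes with the most similar pattern were sought among 6077 non-member genes with a mean FPKM of at least 10, by the Euclidean distance of the centred log2(FPKM + 1) over the 6 libraries. The 3 nearest to *Ckm* were *Myl2*, the ventricular myosin light chain (distance 0.10), *A930016O22Rik* (0.14) and *Dhrs7c* (0.18), of which *A930016O22Rik* is the gene on the opposite strand named above. Nearest to *Ckmt2* were *Cox8b* (0.06), a muscle subunit of cytochrome oxidase, *Phyh* (0.08) and the cardiac troponin gene *Tnni3* (0.12). Nearest to *Ak1* were *Acss1* (0.06), *Dynll2* (0.07) and *Rap1gap2* (0.08). Nearest to *Ckb*, at larger distances, were *Pdgfrb* (0.20), the PDGF receptor of pericytes, smooth muscle and fibroblasts, *Zc3h7a* (0.21) and *Armcx3* (0.23). *Pdgfrb* was read at 20.7 and 21.5 FPKM (WT sham), 31.9 and 30.6 (WT MI) and 47.5 and 43.1 (Card9 KO MI-labelled libraries). The members and these genes share libraries and their depth, and the distances carry no test.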

How the data were processed

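Starting from TRIzol extracts and oligo(dT)-selected mRNA, the authors built TruSeq libraries, sequenced them on an Illumina HiSeq, mapped filtered reads to mm9 with BWA and Bowtie2 and deposited FPKM values per NCBI gene number and library, listed only above 0. The annotation and the use of strand are not given in the sources used here, and read counts were not used. Unlisted genes were set to 0. Symbols came from a GRCm38.p6 table for names only (17390 of 17441 genes matched), and positions from GENCODE in mm9.

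Groups and replicate numbers came from the labels. The study screened genes with NOIseq. Here limma 3.58.1 in R 4.3.3 was fitted to log2(FPKM + 1) of the 13120 genes that reached 1 FPKM in at least 2 libraries, with the 3 groups in 1 fit, no covariate, eBayes with trend and Benjamini-Hochberg adjustment over all genes tested. Ratios were tested by exact permutation. The members and lists were chosen with earlier results of these data known. *Ckmt1* was left out of the creatine kinase sum, which had been planned with it, because it was not analysed here. Named genes are all members, list genes that passed the test (up to 5 of the largest per direction), *Slc25a4*, *Ak3*, *Ak4* and *Slc6a6* in any case, and the 3 non-member genes nearest to *Ckm*, *Ckmt2*, *Ckb* and *Ak1*. The values of 1 partner gene are not reported here. *Card9*, the overlapping genes and marker genes were named besides. Markers covered cardiomyocytes, skeletal and smooth muscle, neural and glial cells, macrophages, neutrophils, fibroblasts, endothelial cells, lymphocytes, adipocytes and erythroid cells. Promoters and motif matches were read in Python 3.11.15 with pandas 2.3.3, and depth was estimated from 4867 genes with 1 coding transcript. The fit and the depth estimate were tested on simulated data. The alternatives changed the added FPKM (0.1 or 5), the filter (none, or mean FPKM from 5 up), the scaling (upper-quartile, quantile, or leaving out the 100 most abundant genes), the fit (only the pair of groups in question, no trend in eBayes, or replicate number as a block), the genes (only those listed in all 6 libraries) and the libraries (each left out in turn), 17 fits in all. A 2-fold minimum in the group means was applied to the counts of calls apart from these.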

Additional observations from a re-analysis of the deposited data

How the results depend on the processing

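Of the 21 member fold changes, 13 kept their direction and side of the threshold under all alternative fits, as did 14 of 36 partner and supply gene fold changes. The 2-fold minimum is a rule on calls and not one of these fits, and among the 13 it ended the calls of *Ckmt2* in WT MI and of *Ak1* in the Card9 KO MI-labelled libraries, both against WT sham. In WT MI against WT sham, 2 members were called higher. This became 1 with upper-quartile, quantile or without-100-genes scaling, without trend and with the 2-fold minimum, and 1 to 2 when a library was left out. The 3 called lower became 1 with the 2-fold minimum and 4 with upper-quartile scaling. The 4 called lower in the Card9 KO MI-labelled libraries against WT sham became 2 with the 2-fold minimum and 3 without trend. The call of *Ak1* among the 3 and that of *Slc6a8* among the 4 also depended on single libraries, as given above. Between the infarct groups, the 1 called higher became 0 with an added FPKM of 0.1, without a filter, with the 2 groups fitted alone, without trend and with the 2-fold minimum, 2 with an added FPKM of 5, and 0 to 1 when a library was left out. With the replicate number as a block it was 0. Same-numbered libraries did not deviate together over the genes (correlation of deviations 0.002, −0.008 and 0.02). The labels do not say whether the numbers pair the samples, and with 2 libraries a group this correlation cannot settle it. Under quantile normalization the *Ckb* share in WT MI exceeded that of WT sham by 1.13 percentage points in place of 1.56, and the muscle forms per cardiomyocyte marker differed by −2.52 (WT MI against WT sham, −1.08 before), −0.53 (between the infarct groups, 0.17 before) and −3.05 (libraries labelled Card9 KO MI against WT sham, −0.91 before). With a library left out, the difference of *Slc6a8* in WT MI against WT sham ran from −0.32 to 0.0012 and that of *Gamt* between the infarct groups from −0.0443 to 0.80. *Slc25a4* in WT MI against WT sham became 0.00 under quantile normalization, and that of *Ak4* ran from −0.28 to 0.0704 with a library left out. The causes were not tested. With 2 libraries a group and an estimated 3010000 to 4270000 fragments, small differences of *Gatm* and *Gamt* could not be resolved.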

Other observations

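Marker lists that no comparison of the members used gave the following sums. The 8 neutrophil markers, of which 6 had a value, summed to 7.10 and 4.84 FPKM (WT sham), 209.6 and 89.6 (WT MI) and 57.9 and 45.5 (Card9 KO MI-labelled libraries), so that the WT MI libraries differed between themselves by more than the infarct groups did at their nearest. The 5 tested neutrophil genes were all called higher against WT sham in WT MI, and 0 of 5 were called between the infarct groups. Among them, *S100a8*, *S100a9* and *Mmp8* passed the filter on low values only with the libraries after infarction. The 7 endothelial markers summed to 291.5 to 308.9 in the 4 wild-type libraries and to 356.9 and 361.2 in the Card9 KO MI-labelled libraries, with 0 of 7 called between the infarct groups. Lymphocyte markers summed to 4.24 to 6.30 in all libraries. Adipocyte markers were at 54.9 and 63.1 (WT sham), 49.7 and 35.1 (WT MI) and 24.1 and 40.1 (Card9 KO MI-labelled libraries). Erythroid markers ran from 383.7 to 877.8 in WT sham, 1554 to 2393 in WT MI and 809.0 to 1424 in the Card9 KO MI-labelled libraries, a spread within each group that no creatine kinase gene showed.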
